A study of Mus musculus with 8 samples.

Results

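The genes described here are 9 interferon-inducible genes measured by single-nucleus RNA sequencing of the mouse gastrocnemius, a muscle of the calf. They were listed by name, as 3 immunity-related GTPases (Iigp1, Irgm1 and Igtp), 3 guanylate-binding proteins (Gbp2, Gbp3 and Gbp7), the transcription factor Irf1 and 2 RNA sensors (Ifih1 and Ddx58), out of 21113 symbols used in common in all libraries. The list was selected on a measured value, the higher level of Iigp1 in fibro-adipogenic nuclei of Running than of Sedentary muscle, so the values of that contrast are described below and carry no test.

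Interferons are cytokines released on infection, and their receptors act through JAK kinases and STAT factors on interferon-response elements in promoters. Immunity-related GTPases and guanylate-binding proteins are large GTP-hydrolysing proteins that assemble on the membranes of vacuoles holding microbes, and they are among the genes most strongly induced by interferon gamma. Irf1 is itself induced by interferon gamma and then activates many of the same promoters, while Ifih1 (the sensor MDA5) and Ddx58 (the sensor RIG-I) bind double-stranded RNA in the cytoplasm and start the production of type I interferon. In muscle, resident macrophages, endothelial cells and stromal cells all carry interferon receptors.

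The study compared 4 groups of wild-type mice of the C57BL/6 strain, with 2 libraries a group. Young mice were 3 months and Old mice 20 months of age. Running mice were 11 months old at the start and ran on a treadmill at 9 m/min in sessions of 30 min for 2 months, and Sedentary mice of the same age did not run. Library 1 of each group was taken as made with 10x Genomics droplets and library 2 with a second droplet system (called the second set here). The sample labels do not name the system, and this assignment was inferred from deposition order and the study's methods. How many animals went into a library is not given in the sources used here, so p-values measure the spread between libraries only.

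The 10x libraries held 10587 to 12991 retained nuclei and 23327640 to 44389777 unique molecular identifiers (UMIs, 1 for each captured RNA molecule), and those of the second set 4228 to 4772 nuclei and 4765224 to 9088163 UMIs. Nuclei were clustered without any gene of the interferon lists and named from marker genes, so a class name means likeness to that cell type. Clusters that met no naming rule took 1.36% to 10.8% of nuclei in the 10x set and 17.1% to 89.3% in the second set. A pair of libraries stood apart. Old 2 had 89.3% unnamed nuclei and 13 fibro-adipogenic progenitor-like (FAP-like) nuclei, and Sedentary 1 had the lowest depth of its set, with a median of 1664 UMIs per nucleus against 2790 to 3001. Pairs of 10x libraries shared 30 to 46 barcodes, and barcodes could not be compared in the second set. Values below are given by library for this reason, in CPM (the usual count scale, with the UMIs of every library or class scaled to the same total), with exact 95% Poisson intervals that cover counting error only.

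The promoters of the members are shown first, because interferon-response elements are the letters that these genes are known to share. A promoter window, from 250 bases before to 50 after a start site, was given in RefSeq (GRCm38.p6) for 8 of the members, in 10 windows. The core of the interferon-stimulated response element, GAAANNGAA, stood on 1 strand or the other in the windows of 7 of these genes, against 9.76% of all 27025 genes with a window (8.56% of 32851 windows). The gamma-activated sequence TTCNNNGAA, which reads the same on both strands, stood in those of 3 genes (Gbp7, Igtp and Irf1), against 9.55% of all genes (8.3% of windows). The members were chosen as interferon genes, so these counts describe the windows and test nothing. The stretches below run 5′ to 3′ on the strand of the gene from 120 bases before to 50 after the start, for some of the genes with a window, and capitals mark every match to either motif.
Irgm1, chr11:48871371-48871540, minus strand: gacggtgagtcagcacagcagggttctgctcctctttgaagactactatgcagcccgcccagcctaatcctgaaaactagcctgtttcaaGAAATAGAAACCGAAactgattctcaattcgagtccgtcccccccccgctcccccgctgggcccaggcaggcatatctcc
Igtp, chr11:58199436-58199605, plus strand: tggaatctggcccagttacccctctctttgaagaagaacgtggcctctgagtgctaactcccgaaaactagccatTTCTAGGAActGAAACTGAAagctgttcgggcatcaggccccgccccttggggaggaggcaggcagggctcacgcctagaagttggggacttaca
Gbp2, chr3:142620543-142620712, plus strand: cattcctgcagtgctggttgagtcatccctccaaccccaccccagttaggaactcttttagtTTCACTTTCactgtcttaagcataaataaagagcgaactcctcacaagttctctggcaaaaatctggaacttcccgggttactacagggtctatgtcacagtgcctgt
Gbp7, chr3:142530216-142530385, plus strand: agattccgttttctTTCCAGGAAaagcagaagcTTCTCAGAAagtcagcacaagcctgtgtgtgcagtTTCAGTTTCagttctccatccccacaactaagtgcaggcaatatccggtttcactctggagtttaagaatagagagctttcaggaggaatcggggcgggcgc
Irf1, chr11:53769894-53770063, plus strand: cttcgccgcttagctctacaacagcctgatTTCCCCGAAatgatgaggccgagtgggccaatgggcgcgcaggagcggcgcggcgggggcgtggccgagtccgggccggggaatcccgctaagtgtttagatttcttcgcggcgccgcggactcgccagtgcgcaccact
In Irgm1 a pair of overlapping response-element cores began 30 and 24 bases before the start. In Igtp the gamma-activated sequence began 45 and the response-element core 34 bases before the start, so that 2 bases lay between them. In Gbp7 the gamma-activated sequence stood at 106 and again at 87 bases before the start, with the response-element core on the opposite strand at 52. Gbp2 held the core alone, also on the opposite strand, at 58, and Irf1 held the gamma-activated sequence alone, at 90. Of the genes not printed, Gbp3 held the core at 44 and 38 bases before the start, Ifih1 at 112 before and 33 after it, and Ddx58 at 4 after it.

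In GRCm38 the guanylate-binding proteins lie side by side on chromosome 3, with Gbp7 at 142530342 to 142550149, Gbp3 at 142560026 to 142573209 and Gbp2 at 142620602 to 142638008. On chromosome 11, Irgm1 spans 48861968 to 48871683, Irf1 spans 53770014 to 53778374 and Igtp spans 58199556 to 58207591. Iigp1 lies on chromosome 18 at 60376027 to 60392634, Ifih1 on chromosome 2 at 62595798 to 62646255 and Ddx58 on chromosome 4 at 40203773 to 40239828. Igtp overlaps Irgm2 on the same strand, and Irgm2 had more UMIs than Igtp in all 4 of the 10x libraries (for instance 838 against 180 in Young 1), so how reads were split between them is uncertain. The GTPases among the members also belong to families with close relatives (Gm4951 and F830016B08Rik beside Iigp1, further Gbp genes beside Gbp2, Gbp3 and Gbp7). Whether the counting moved reads between such relatives was not tested.

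The levels of the GTPases in whole libraries came first. Iigp1, a GTPase that is recruited to the vacuoles of intracellular parasites, was measured at 37.1 CPM in Young 1, 10.6 in Old 1, 14.3 in Running 1 and 4.71 in Sedentary 1. In the second set it stood at 7.75 CPM in Young 2, 17.6 in Old 2, 7.99 in Running 2 and 7.93 in Sedentary 2. Young exceeded Old in the 10x set and fell below it in the second set, so the groups overlapped. Irgm1, which regulates the other GTPases of its family, was at 10.3 CPM in Young 1, 8.38 in Old 1, 7.78 in Running 1 and 5.40 in Sedentary 1, and at 5.06, 4.04, 5.05 and 4.50 CPM in library 2 of the same groups. Old was below Young in both sets for this gene, by 0.26 and 0.27 on the log2(CPM + 1) scale. Igtp, a regulatory GTPase as well, was at 0.907 to 4.56 CPM in the 10x set and at 8.99 to 12.2 CPM in the second, with no overlap between the sets.

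Among the guanylate-binding proteins, Gbp2 was at 7.73 CPM in Young 1, 4.15 in Old 1, 2.86 in Running 1 and 1.60 in Sedentary 1, and at 2.14, 6.66, 1.68 and 0.429 CPM in library 2 of the same groups. Gbp3 was highest in Old 2 at 8.27 CPM and lay between 1.501 and 4.31 CPM in the other libraries. Gbp7 was highest in Young 1 at 15.0 CPM, and Sedentary held the lowest value of each set, at 3.24 and 1.93 CPM. For all 3 of these genes, Running was above Sedentary in both sets and Old was above Young in the second set only.

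Irf1, the transcription factor, was at 23.5 CPM in Old 1 and 14.3 in Young 1, and at 8.68 and 6.74 CPM in the same groups of the second set. Old thus exceeded Young within each set, as it also did for Ddx58. Ifih1 was at 11.5 to 24.1 CPM in the 10x set and at 2.57 to 19.8 CPM in the second, with its highest value of that set in Old 2. Ddx58 was at 7.99 to 17.2 CPM in the 10x set and at 27.2 to 37.4 CPM in the second, and again the sets did not overlap. The share of all genes without overlap between the sets was not counted, so this is not read as particular to these members.

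**Figure D1:**
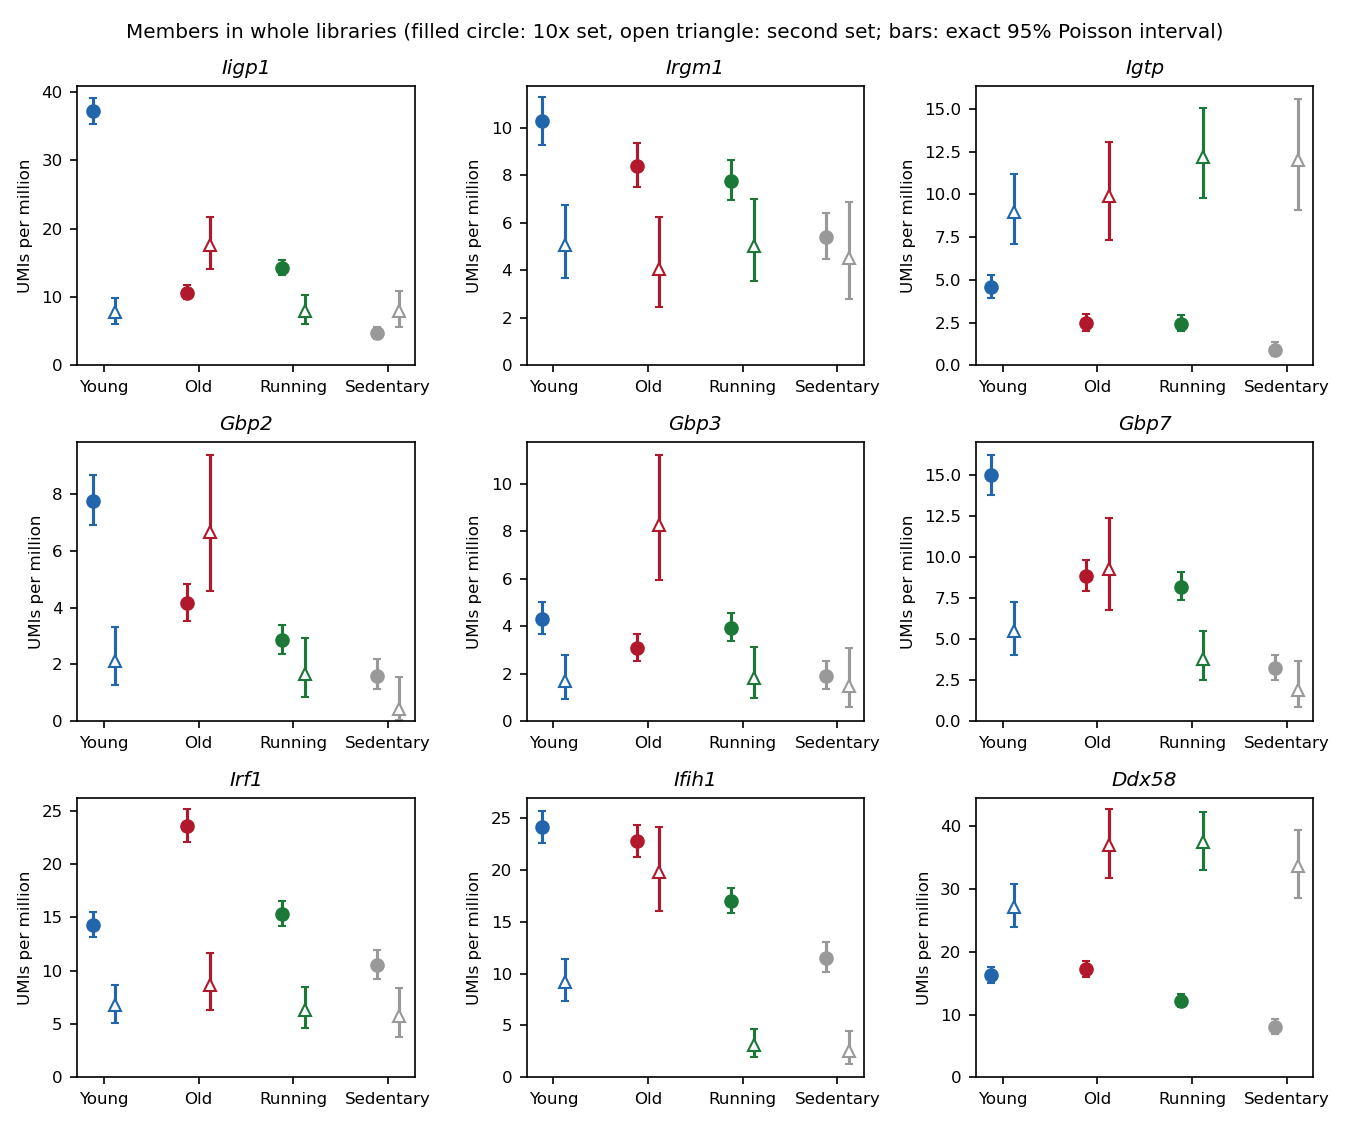
Level of each member in the 8 whole libraries, in CPM (vertical axis, linear, its own range in each panel) by group. Filled circles are the 10x set, open triangles the second set, and bars are exact 95% Poisson intervals. Iigp1 is highest in Young 1 (37.1) and Igtp and Ddx58 are higher in all 4 second-set libraries than in any 10x library.

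Old was then compared with Young over whole libraries, which asks how the members differ with age. None of the 9 members was called at an adjusted p of 0.05 by edgeR, 0 of 9 had an unadjusted p below 0.05, and DESeq2 called 0 of 9 as well. Of all 20325 genes tested, edgeR called 0%, and 2.74% had an unadjusted p below 0.05. The median fold change of all tested genes was 0.19 on the log2 scale, and that of the members was -0.15. The log2 fold change (Old over Young) was -0.98 (SE 0.77, edgeR adjusted p 0.69) for Iigp1, -0.88 (SE 0.77) for Igtp and -0.67 (SE 0.60) for Irgm1, so the estimates of all 3 immunity-related GTPases were below 0 with standard errors of a like size. Gbp3 had the highest estimate, 0.52 (SE 0.85, edgeR adjusted p 0.78). Ddx58 had an estimate of -0.15 (SE 0.51), although its CPM was higher in Old than in Young in both sets.

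The sets disagreed in direction for 6 of the 9 members. The share of all genes with such a disagreement was not counted. On the log2(CPM + 1) scale, Old minus Young for Iigp1 was -1.71 with 10x and 1.08 with the second system. For Igtp the same differences were -0.68 and 0.12, for Gbp2 -0.76 and 1.29, for Gbp3 -0.38 and 1.79, for Gbp7 -0.70 and 0.66, and for Ifih1 -0.08 and 1.02. Irf1 differed by 0.68 and 0.32, with Old above Young each time. In a sum over a library, fewer nuclei of a class and less RNA per nucleus cannot be told apart, and Old 2 held 5.36% myofiber-like nuclei against 39.5% in Young 2. Without Old 2 and Sedentary 1, 0 of 9 members were called by edgeR, the estimate for Iigp1 was -1.73, and those of Gbp3 (-0.65) and Ifih1 (-0.54) turned below 0.

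Within the 10x set, the nuclei that carried the members were mostly not myonuclei. FAP-like nuclei (fibro-adipogenic progenitors are the stromal cells of muscle, which can form fat and scar tissue) held 38.2% of the Iigp1 UMIs of this set, adipocyte-like nuclei 22.2%, endothelial-like nuclei 19.1% and type IIb myonuclei-like nuclei, the most numerous class, 4.39%. Type IIb-like nuclei held larger shares of Irgm1 (32.2%) and of Igtp (28.4%) than of any other member. The names of these classes were checked against their markers. The sum of 9 FAP markers was 8581 to 13298 CPM in FAP-like nuclei and 240 to 635 CPM in type IIb-like nuclei, and the sum of 7 endothelial markers was 5318 to 7747 CPM in endothelial-like nuclei and 28.0 to 68.1 CPM in type IIb-like nuclei. The reverse was less clean. The sum of 6 type IIb markers was 3212 to 6279 CPM in FAP-like and 4666 to 7953 CPM in endothelial-like nuclei. In Sedentary 1 it exceeded the endothelial sum of endothelial-like nuclei (7953 against 5318 CPM). The sum of 6 B cell markers was 4142 to 6088 CPM in FAP-like nuclei. The source of these UMIs was not tested.

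Iigp1 had its highest level in endothelial-like nuclei, at 401 CPM in Young 1, 144 in Old 1, 138 in Running 1 and 101 in Sedentary 1. Lymphatic endothelial-like nuclei followed with a median of 81.5 CPM over 3 libraries (18.4 to 82.3), then macrophage-like nuclei with 54.7 (13.4 to 132), adipocyte-like nuclei with 39.2 (11.5 to 352) and FAP-like nuclei with 32.0 (4.89 to 85.5). The ranges of these last 4 classes overlapped each other. Every endothelial-like value exceeded all those of lymphatic endothelial-like and FAP-like nuclei. Within each library, endothelial-like nuclei also exceeded macrophage-like nuclei (132 CPM in Young 1, 22.4 in Old 1, 87.0 in Running 1 and 13.4 in Sedentary 1). The same held against adipocyte-like nuclei (352, 13.4, 65.0 and 11.5 CPM in the same libraries). Type IIb-like nuclei lay far below, at 0.717 to 2.33 CPM. In B cell-like nuclei 0 Iigp1 UMIs were found in 70 nuclei of Young 1, which allows a share of nuclei with a UMI of up to 5.20% (Wilson 95% bound) and does not limit the share that express the gene. An Iigp1 UMI was seen in 29.4% of endothelial-like nuclei of Young 1 (Wilson 95% interval 23.9% to 35.6%, median depth 1862 UMIs) and in 0.666% of type IIb-like nuclei of the same library, which had a median depth of 3259 UMIs.

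After every nucleus had been thinned to 500 UMIs, 13.2% of endothelial-like and 0.104% of type IIb-like nuclei of Young 1 held an Iigp1 UMI. Free RNA in the droplets was not estimated, and its part in these shares was not tested. The values of type IIb-like and B cell-like nuclei are given for comparison only.

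Gbp2, Gbp3, Gbp7, Ifih1 and Ddx58 also had their highest median in endothelial-like nuclei. For Gbp7 that median was 61.4 CPM (34.4 to 176), above macrophage-like nuclei at 43.7 (17.9 to 65.2). For Ifih1 it was 75.1 CPM (45.8 to 108), and FAP-like nuclei at 60.5 (44.8 to 72.8) and macrophage-like nuclei at 59.1 (26.8 to 95.1) overlapped with it. Irgm1 was highest in macrophage-like nuclei at 23.9 CPM (4.46 to 42.0), with endothelial-like nuclei at 21.5 (16.0 to 44.9) not apart from them. Irf1 had a flatter order, with T cell-like nuclei at 68.2 CPM (3 libraries, 27 UMIs), endothelial-like nuclei at 55.0 (48.1 to 73.1) and FAP-like nuclei at 48.8 (30.1 to 63.1).

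**Figure D2:**
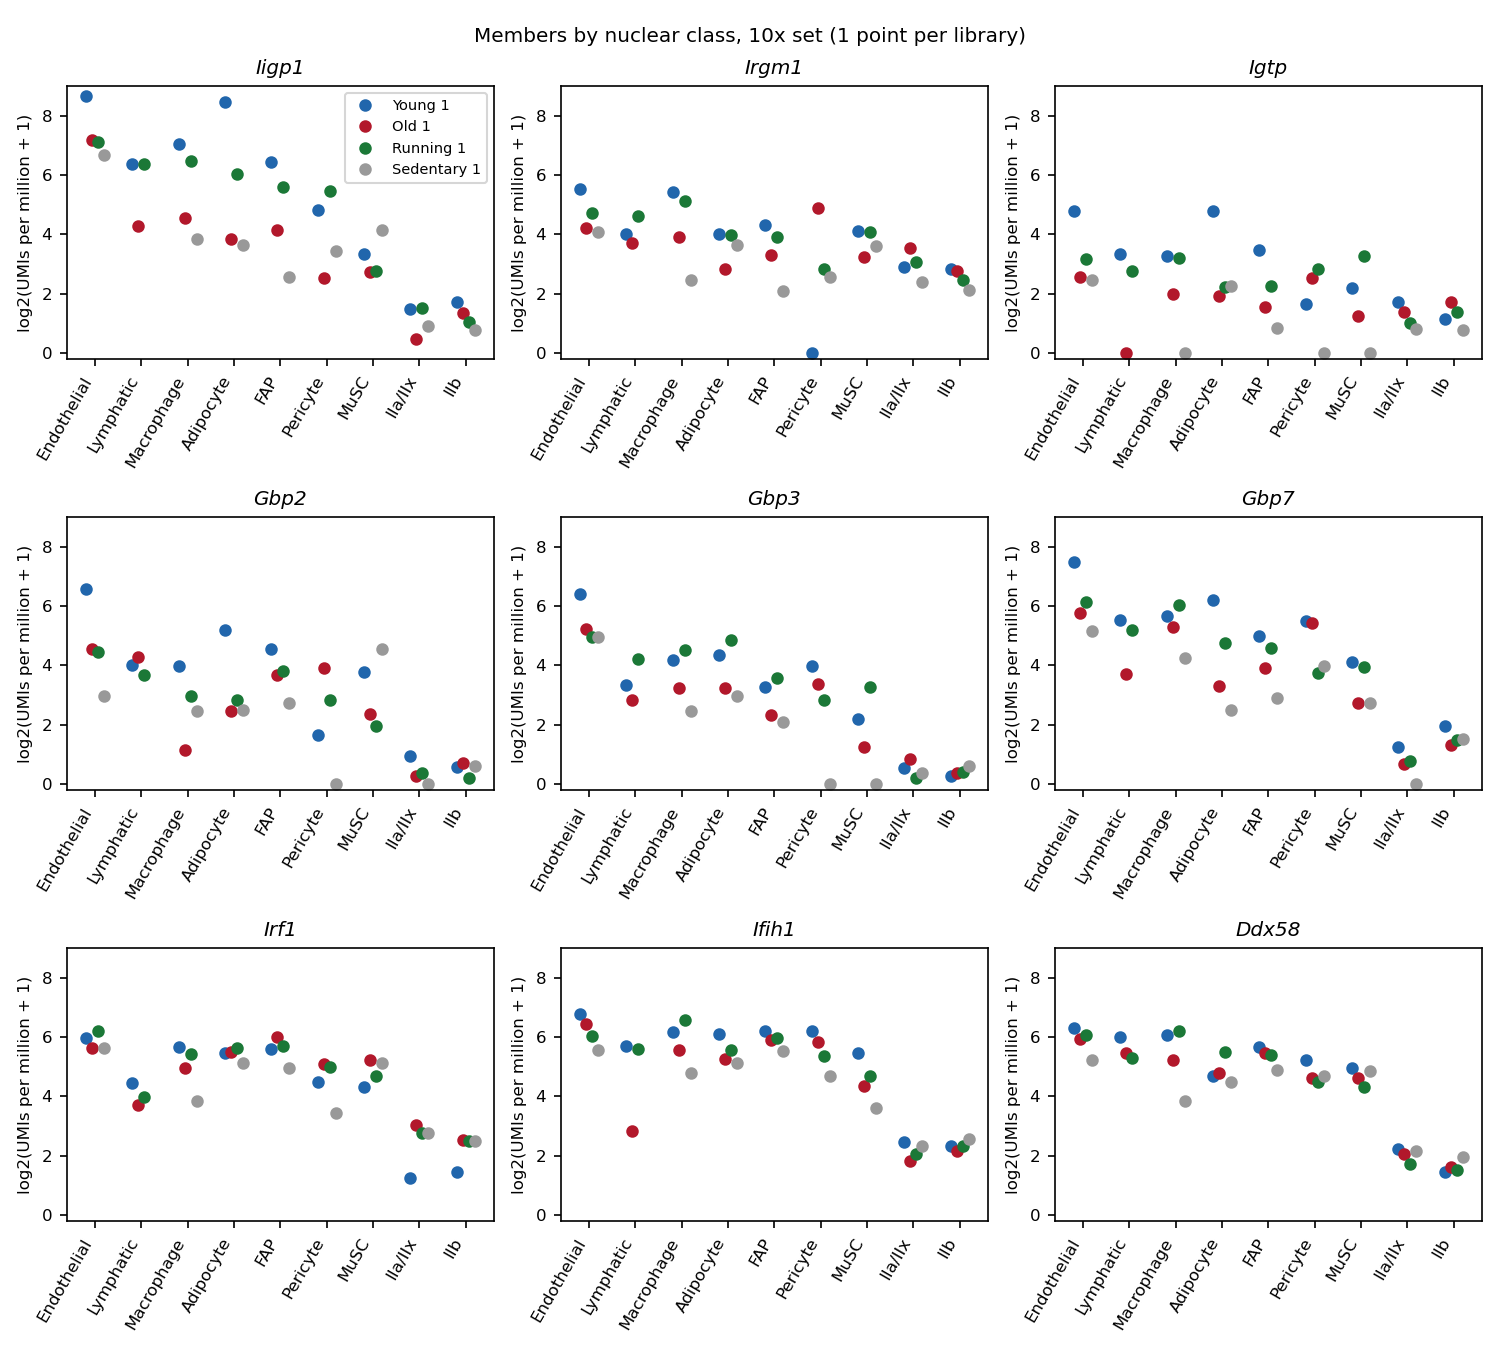
Level of each member, as log2(CPM + 1), in 9 nuclear classes of the 10x set, with 1 point for each library. Iigp1 spans the widest range, from 0.717 to 2.33 CPM in type IIb-like to 101 to 401 in endothelial-like nuclei. Young 1 is highest in many non-muscle classes, while the libraries lie close together in type IIb-like nuclei.

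The class levels were then set side by side for Young 1 and Old 1. With 1 library of each there is no replicate and no test, and the intervals of these ratios cover counting error only. Iigp1 was at 352 CPM (436 UMIs) in adipocyte-like nuclei of Young 1 and at 13.4 CPM (24 UMIs) in those of Old 1, a ratio of 26.2 (17.4 to 41.4). In FAP-like nuclei it was at 85.5 CPM (573 UMIs) in Young 1 and 16.7 CPM (138 UMIs) in Old 1, a ratio of 5.11 (4.24 to 6.20). The sums of 9 FAP markers (12952 CPM in Young 1 and 13298 in Old 1) and of 7 adipocyte markers in their own classes (9794 and 8576 CPM) lay closer together than this. The ratio for Iigp1 was 5.91 (4.03 to 8.84) in macrophage-like nuclei and 2.79 (2.25 to 3.45) in endothelial-like nuclei.

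Adipocyte-like and FAP-like nuclei of different libraries lay partly in different clusters when these were drawn more finely, at a resolution of 2.0, and the values within these clusters were added after the data had been seen. Adipocyte-like nuclei then fell into a cluster led by Npr3, Nnat and Cidec, with 320 nuclei of Old 1, 13 of Young 1, 26 of Running 1 and 502 of Sedentary 1, and a cluster led by Adrb3, Pnpla3 and Cyp2e1, with 42, 209, 270 and 6 nuclei of the same libraries. The adipocyte-like ratios therefore set largely different clusters side by side. Within the second of these clusters Iigp1 was at 361 CPM in Young 1 (95% interval 328 to 397), 57.1 in Old 1 (12 UMIs, 29.5 to 99.8) and 52.6 in Running 1 (41.7 to 65.5). Within the first, Sedentary 1 was at 11.6 CPM (15 UMIs, 6.47 to 19.1) and Old 1 at 7.60 (12 UMIs, 3.93 to 13.3). Running 1 was higher there, at 259 CPM (25 UMIs in 26 nuclei, 168 to 382). Young 1 was too, at 122 CPM (6 UMIs in 13 nuclei, 44.7 to 265). Among adipocyte-like nuclei of Running 1, 3 nuclei with 5 or more UMIs held 77 of the 105 Iigp1 UMIs, which the intervals do not cover. FAP-like nuclei fell into 5 named clusters, of which the one led by Hmcn2 and Bmper held 1427 nuclei of Old 1 and 179 of Young 1, and the one led by Col6a6 and Bmp5 held 32 and 795 (and 809 of Running 1 and 57 of Sedentary 1). Iigp1 was at 20.5 CPM in Old 1 and 109 in Young 1 in the former, at 17.2 and 38.2 CPM in the cluster led by Gfpt2 and Pi16, and at 17.1 and 152 CPM in the cluster led by Gpc6 and Myoc, so Young 1 was above Old 1 within each of these 3 clusters. In the cluster led by Col6a6, Old 1 had 0 Iigp1 UMIs in 32 nuclei, and in the smallest cluster, led by Apod and Abca6, Old 1 had 3 in 135 nuclei and Young 1 had 0 in 52.

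In FAP-like, adipocyte-like and endothelial-like nuclei the other 5 GTPases stood in the same direction, with intervals that left out 1. In adipocyte-like nuclei Gbp7 was at 72.6 CPM in Young 1 and 8.94 in Old 1, Gbp2 at 35.5 and 4.47, and Igtp at 26.6 and 2.80. In FAP-like nuclei the ratio of Young 1 to Old 1 was 5.23 (3.001 to 9.66) for Igtp, 2.19 (1.74 to 2.77) for Gbp7, 2.10 (1.56 to 2.83) for Irgm1 and 1.88 (1.45 to 2.46) for Gbp2. In type IIb-like nuclei the direction was not shared by all, since Igtp was at 2.33 CPM in Old 1 and 1.25 in Young 1, a ratio of Old to Young of 1.87 (1.13 to 3.12), while Gbp7 stood lower in Old 1, with a ratio of 0.521 (0.316 to 0.834).

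Irf1 varied in direction by class. It was at 63.1 CPM in FAP-like nuclei of Old 1 and 47.2 in Young 1, a ratio of Old to Young of 1.34 (1.16 to 1.54), and at 4.72 and 1.75 CPM in type IIb-like nuclei, a ratio of 2.71 (1.84 to 4.03). In macrophage-like nuclei the ratio was 0.612 (0.396 to 0.951), and in endothelial-like (0.801) and adipocyte-like nuclei (1.03) the intervals held 1. Of 9 classes with enough UMIs, the interval for Irf1 lay above 1 in 3 and below 1 in 1. For the sensor Ifih1 it lay below 1 in 4 of 8 classes and above 1 in 0. The ratio of Young 1 to Old 1 for Ifih1 was 1.24 (1.09 to 1.40) in FAP-like, 1.79 (1.28 to 2.51) in adipocyte-like, 1.54 (1.08 to 2.19) in macrophage-like and 1.27 (0.896 to 1.78) in endothelial-like nuclei. For Ddx58 it was 1.78 (1.21 to 2.61) in macrophage-like nuclei, and the intervals of the other 10 classes held 1.

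Summed over the 9 members, the level was 1073 CPM in endothelial-like nuclei of Young 1 and 472 in Old 1, 656 and 153 in adipocyte-like nuclei, 451 and 201 in macrophage-like nuclei, and 346 and 223 in FAP-like nuclei. In type IIb-like nuclei the sum was 20.8 CPM in Young 1, 22.4 in Old 1, 20.1 in Running 1 and 20.2 in Sedentary 1. Of 13 classes compared, the interval of the summed ratio of Old 1 to Young 1 lay below 1 in 6 and above 1 in 0. When the 10 classes present in all 4 of the 10x libraries were given 1 common mix, Iigp1 was at 42.0 CPM in Young 1, 7.56 in Old 1, 16.2 in Running 1 and 4.50 in Sedentary 1, against 37.6, 10.4, 13.9 and 4.19 CPM at each library's own mix. Irf1 remained higher in Old 1 (18.04 CPM) than in Young 1 (13.2 CPM) at the common mix.

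The fit over libraries could be made within 5 classes, of which FAP-like nuclei were the only class outside the myofibers. Old 2 held too few FAP-like nuclei (13) and was not in that fit, so that Old rested on Old 1. The libraries of the second set together held 7 Iigp1 UMIs in FAP-like nuclei, those of Old 2 included. That is too few to read a level or a direction for Old 2, and the estimates below do not include it. Of the 13452 genes tested there, edgeR called 0.186%, and 0 of 9 members were called. Iigp1 had a log2 fold change (Old over Young) of -2.35 (SE 0.62), with an unadjusted p of 0.000146 and an edgeR adjusted p of 0.073, the only member of the 9 with an unadjusted p below 0.05. Young 2 had 2 Iigp1 UMIs in 72 FAP-like nuclei, which is under the floor of 3 counts, so the estimate came mainly from Old 1 and Young 1. The single library of Old is assumed to vary like the other groups, which supply the spread, and without Young 2 the same holds for Young. That spread draws on FAP-like nuclei of Running and Sedentary, whose Iigp1 values the list was selected on. The p-values of this fit and the calls that follow are therefore not independent of the selection. Iigp1 was called without Sedentary 1 (-2.39, edgeR adjusted p 0.0084), without Sedentary 2 (-2.37, 0.011), without Young 2 (-2.46, 0.00081) and when clusters were drawn at a resolution of 2.0 (-2.26, 0.021).

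In the same fit Igtp was at -1.92 (SE 1.15), Irgm1 at -1.26 (SE 0.85), Gbp7 at -1.21 (SE 0.68), Gbp3 at -1.10 (SE 1.06), Gbp2 at -0.91 (SE 0.80), Ifih1 at -0.63 (SE 0.55) and Ddx58 at -0.15 (SE 0.54), while Irf1 was at 0.34 (SE 0.56). The median over all genes tested was -0.002. The edgeR adjusted p was 0.9999 for all 8 of these. Over all 9 fits within classes, edgeR called 0.0862% of the 93990 tests, 0 of the 37 on members, and 1 of the 37 had an unadjusted p below 0.05. DESeq2 called 0 of the 37 too. In type IIb-like nuclei the 7 members tested had estimates between -1.16 (Gbp7) and 1.31 (Irf1) for Old over Young and between -0.30 and 0.42 for Running over Sedentary.

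**Figure D3:**
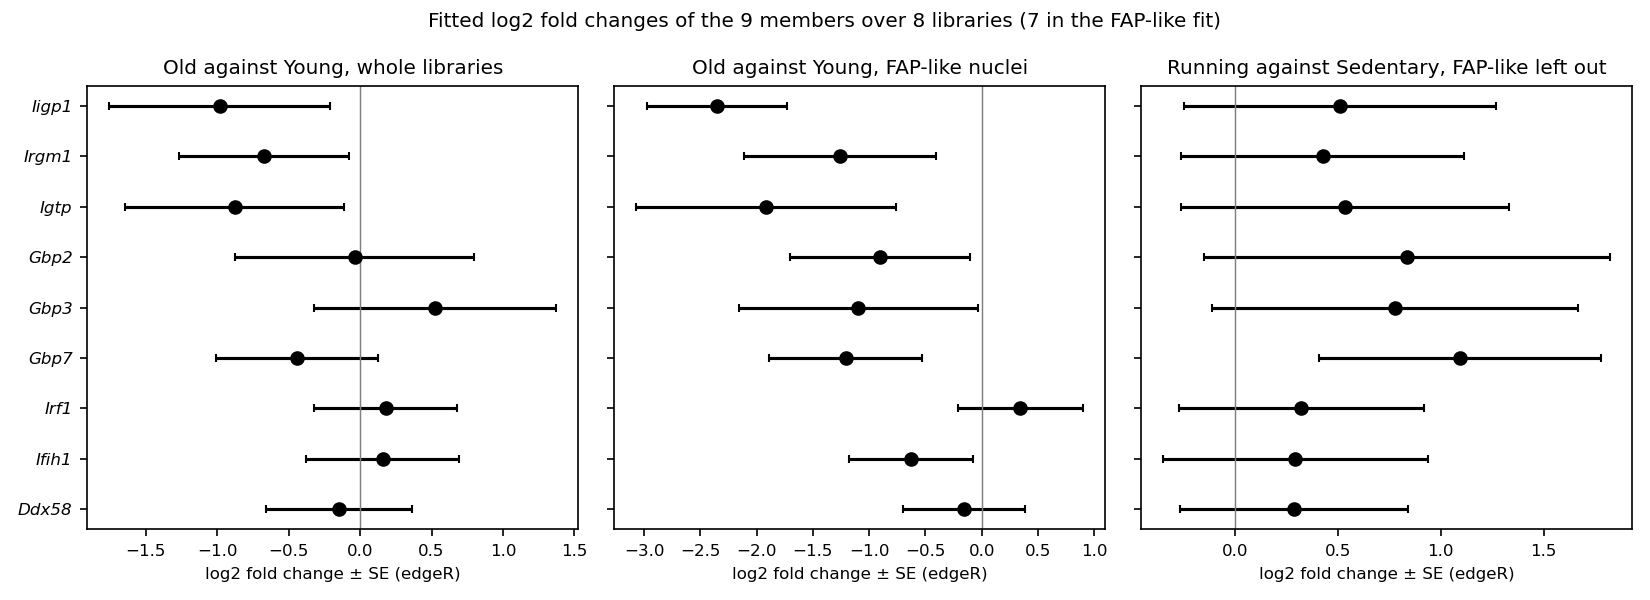
Fitted log2 fold change (horizontal axis) of the 9 members in 3 fits, with points for the edgeR estimate, bars for ± 1 SE and a vertical line at no difference. In FAP-like nuclei Iigp1 is at -2.35 with an SE of 0.62, and the points of 8 members lie below 0 and that of Irf1 above it.

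The contrast that the list was drawn from is given as a description. In FAP-like nuclei Iigp1 was at 47.3 CPM (283 UMIs in 2555 nuclei) in Running 1 and at 4.89 CPM (6 UMIs in 830 nuclei) in Sedentary 1, a ratio of 9.68 with a counting interval of 4.39 to 26.6. In the second set, Running 2 had 3 Iigp1 UMIs in 110 FAP-like nuclei and Sedentary 2 had 0 in 92, which allows a level of up to 33.2 CPM, so no difference could be detected there at this depth. An Iigp1 UMI was found in 6.03% of the FAP-like nuclei of Running 1 and 0.602% of those of Sedentary 1, with median depths of 1900 and 1158.5 UMIs. At 500 UMIs per nucleus the shares were 1.92% and 0.241%.

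Further members were higher in FAP-like nuclei of Running 1 than of Sedentary 1. The ratio was 4.31 (1.62 to 16.2) for Irgm1, 3.56 (1.76 to 8.42) for Gbp7, 3.39 (1.26 to 12.8) for Gbp3, 2.32 (1.07 to 5.95) for Gbp2, 1.67 (1.19 to 2.42) for Irf1, 1.44 (1.01 to 2.12) for Ddx58 and 1.38 (1.04 to 1.87) for Ifih1. Igtp had 23 UMIs in Running 1 and 1 in Sedentary 1, too few for a ratio. In these nuclei the FAP marker sum was 12584 CPM in Running 1 and 8581 in Sedentary 1, and the sum of 6 type IIb markers was 4848 and 6279 CPM. Their part in the ratios was not tested. In the same nuclei the sum of 8 macrophage markers was 38.1 and 44.0 CPM, against 6789 to 10639 CPM in macrophage-like nuclei, and that of 7 endothelial markers was 306 and 208 CPM, against 5318 to 7747 CPM in endothelial-like nuclei, with no marker at 0. Their part was not tested either.

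Adipocyte-like nuclei had Iigp1 in the same order, with 65.0 CPM in Running 1 and 11.5 in Sedentary 1, a ratio of 5.64 (3.26 to 10.4). Gbp7 had the same ratio there, 5.64 (2.38 to 16.2), Gbp3 one of 4.03 (1.94 to 9.37) and Ddx58 one of 2.04 (1.30 to 3.28). The intervals of Irgm1 (1.29, 0.649 to 2.64), Gbp2 (1.34, 0.442 to 4.49), Igtp (0.966, 0.246 to 4.001), Irf1 (1.43, 0.974 to 2.12) and Ifih1 (1.35, 0.920 to 2.01) held 1. For Iigp1, 3 adipocyte-like nuclei of Running 1 with 5 or more UMIs held 77 of 105 UMIs, 53 of them in 1 nucleus. The counting interval does not cover this. Without such nuclei, which were picked by the level itself, Iigp1 was at 17.6 CPM in Running 1 and 11.5 in Sedentary 1. As described above, Running 1 and Sedentary 1 hold largely different adipocyte clusters. The adipocyte marker sum in these nuclei was 9039 CPM in Running 1 and 6250 in Sedentary 1, and its part was not tested. In endothelial-like nuclei the ratio for Iigp1 was 1.37 (0.944 to 2.02), an interval that held 1. For the sum of the 9 members, the interval of Running 1 over Sedentary 1 lay above 1 in 5 of 9 classes and below 1 in 0. In macrophage-like nuclei that sum was 434 CPM against 98.2.

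**Figure D4:**
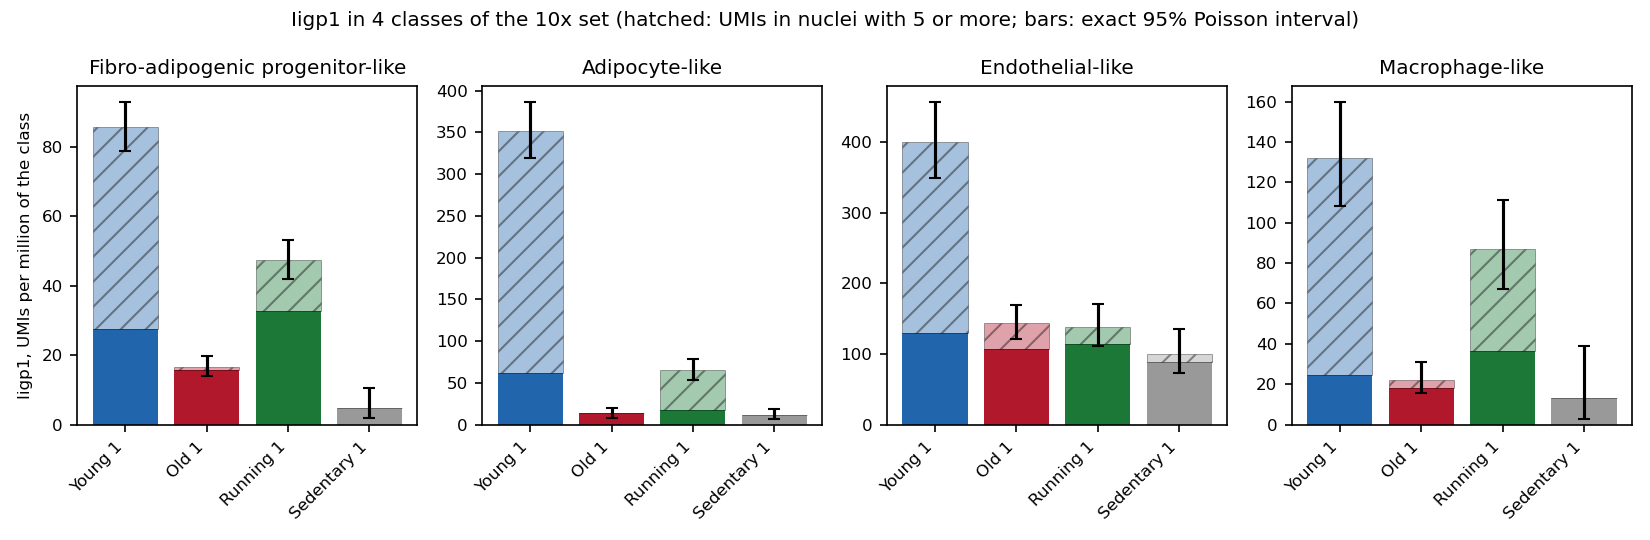
Iigp1 in 4 nuclear classes of the 10x set, in CPM of the class (vertical axes start at 0, with its own range in each panel). Bars are single libraries, hatching marks the part in nuclei with 5 or more Iigp1 UMIs, and error bars are exact 95% Poisson intervals. Young 1 is highest in all 4 classes (352 in adipocyte-like nuclei), Sedentary 1 is lowest in all 4, and the hatched part makes up most of Young 1.

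Running was compared with Sedentary over both sets with the FAP-like nuclei left out. The 9 members had log2 fold changes (Running over Sedentary) above 0, from 0.29 to 1.09. None passed the test, since edgeR called 0 of 9, 0 of 9 had an unadjusted p below 0.05, and DESeq2 called 0 of 9. Of all 20261 genes tested, edgeR called 0%, and 0.582% had an unadjusted p below 0.05. Gbp7 was at 5.85 CPM in Running 1 and 3.05 in Sedentary 1, and at 3.59 and 1.97 CPM in library 2 of these groups, so both Running values exceeded the Sedentary value of their set. Its log2 fold change was 1.09 (SE 0.68, unadjusted p 0.14, edgeR adjusted p 0.9998).

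Iigp1 was at 9.11 CPM in Running 1 and 4.70 in Sedentary 1, and at 7.76 and 8.09 CPM in the second set. Its log2 fold change of 0.51 (SE 0.76) turned to -0.30 without Sedentary 1 and to -0.55 without Sedentary 1 and Old 2. Igtp, at 0.53 (SE 0.80), turned to -0.38 without Sedentary 1, Irgm1 from 0.43 (SE 0.69) to -0.10, and Ddx58 from 0.29 (SE 0.55) to -0.19. Ifih1, at 0.29 (SE 0.64), turned to -0.30 without Running 1. The 3 guanylate-binding proteins and Irf1 stayed above 0 whichever library was left out.

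The Iigp1 UMIs lay in few nuclei. In Young 1, 81 nuclei (0.687% of the library) held 5 or more Iigp1 UMIs each and together 68.4% of its 1465 Iigp1 UMIs. In Running 1 there were 22 such nuclei with 35.4% of 630 UMIs, in Old 1 there were 9 with 12.8% of 413, and in Sedentary 1 there was 1 with 4.59% of 109. The highest single nuclei held 53 UMIs in Running 1 (adipocyte-like) and 38 in Young 1 (FAP-like). Without these nuclei the level in FAP-like nuclei was 28.2 CPM in Young 1, 15.7 in Old 1, 32.8 in Running 1 and 4.89 in Sedentary 1. These nuclei were picked by the level itself, so leaving them out must lower most the library that holds most of them (30 of the FAP-like nuclei of Young 1 and 1 of Old 1), and the values are a description. In adipocyte-like nuclei the level without them was 70.8 CPM in Young 1 and 17.6 in Running 1, against 13.4 in Old 1 and 11.5 in Sedentary 1. The median depth of these nuclei among FAP-like nuclei of Young 1 was 4310.5 UMIs, against 2640.5 in the class.

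Nuclei with an Iigp1 UMI were compared with nuclei of the same class and library without one, in the 14 pairings of 4 classes and 4 libraries that had at least 10 nuclei with a UMI. Nuclei are not replicates, so this is a description. Irgm1 was higher in the nuclei with Iigp1 in 14 of 14 pairings, Gbp7 in 13, Ifih1 and Ddx58 in 12 each, Gbp3, Igtp and Irf1 in 11 each and Gbp2 in 10. Most exceptions lay in Old 1. Some pairings rest on very few UMIs. For Irgm1 the nuclei with Iigp1 held 1 UMI in adipocyte-like nuclei of Old 1. They held 3 in endothelial-like nuclei of Running 1 (28.1 against 24.9 CPM). The share of all genes that were higher in nuclei with Iigp1 was not counted. In FAP-like nuclei of Young 1, 158 nuclei with and 2012 without an Iigp1 UMI were compared. Irgm1 was at 86.3 CPM in the former and 12.1 in the latter, Igtp at 64.8 and 4.76, Gbp7 at 107.9 and 23.5, and Gbp2 at 64.8 and 18.2. Irf1 (88.0 and 43.1 CPM), Ifih1 (129.5 and 67.2 CPM) and Ddx58 (98.0 and 45.1 CPM) differed by less. The median depth was 3251 UMIs with and 2606.5 without Iigp1, and its part in these differences was not tested.

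The same nuclei were also higher in genes that were not members. Gm4951, a relative of Iigp1, was at 315 CPM in FAP-like nuclei of Young 1 with Iigp1 and at 28.4 without, and Nlrc5, an activator of antigen-presentation genes, was at 46.5 and 6.07 CPM in the same nuclei, each higher in 13 of 14 pairings. Reads that fit both genes could raise Gm4951 with Iigp1, which was not tested. In FAP-like nuclei of Running 1, where 154 nuclei held Iigp1, Irgm1 was at 49.8 CPM with and 11.3 without it, and Gbp7 at 68.8 and 19.8 CPM.

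**Figure D5:**
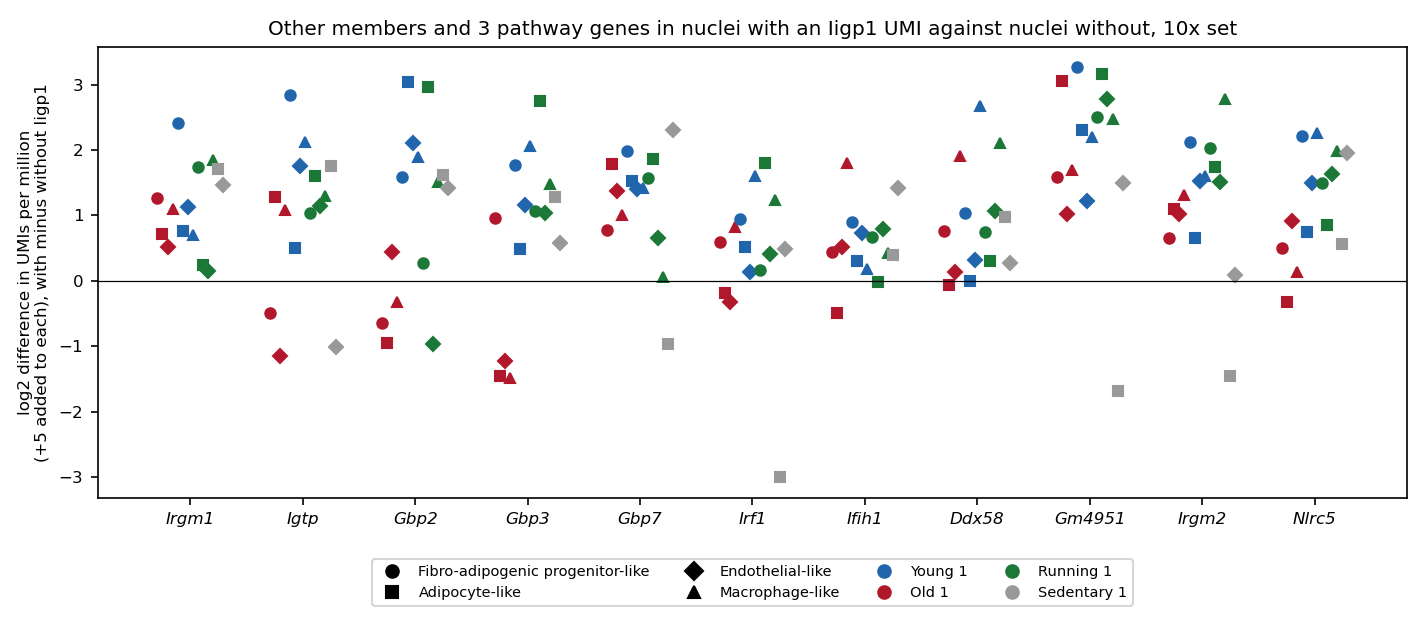
Difference between nuclei with and without an Iigp1 UMI, as log2 of the CPM with 5 added (vertical axis), for the other 8 members and 3 pathway genes. Each point is 1 class in 1 library of the 10x set, with shape for class and color for library, and the line marks no difference. All 14 points of Irgm1 lie above the line, some of them from 3 or fewer UMIs in the nuclei with Iigp1. Most points below the line are those of Old 1.

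The patterns most like those of the members were looked for over 51 class-by-library sums of the 10x set, among 15465 genes. These points share libraries and depth, so Pearson r of log2(CPM + 1) is a description. For the sum of the 9 members the closest genes were Elovl5 (r 0.932), a fatty-acid elongase, Parp14 (0.928), Ifnar2 (0.926), a subunit of the type I interferon receptor, Lgals9 (0.923), which encodes galectin 9, and Stat2 (0.921), which carries type I interferon signals. For Iigp1 alone they were Phf11d (0.872), Gm4951 (0.834), Luzp1 (0.795), Xdh (0.793) and the double-stranded RNA receptor Tlr3 (0.788).

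The rest of the interferon pathway was taken from lists of 121 further genes, of which 97 could be tested. For Old over Young, edgeR and DESeq2 called 0 of the 97, 3 had an unadjusted p below 0.05 with edgeR, 52 estimates were above and 45 below 0, and the median was 0.07 on the log2 scale against 0.19 for all genes. Among the 7 sublists tested, the median was highest for 20 targets of interferon gamma (0.45, 13 estimates above and 7 below 0) and 16 genes of RNA and DNA sensing (0.39, 13 and 3), and lowest for 8 negative regulators (-0.71, 3 and 5) and 10 receptor, JAK and STAT genes (-0.33, 3 and 7). The 3 genes with the smallest p were F830016B08Rik, Irf2 and Cish. F830016B08Rik, a relative of Iigp1, was at 165 CPM in Young 1 and 22.4 in Old 1 but at 25.5 and 21.6 CPM in the second set (log2 fold change -2.39, SE 0.81, edgeR adjusted p 0.69). Cish, an inhibitor of cytokine receptor signals, was at 53.0 CPM in Young 1 and at 1.73 to 4.44 CPM in the other 7 libraries (-2.90, SE 1.22, edgeR adjusted p 0.69). Irf2, a factor that opposes Irf1, was at 360 CPM in Young 1 and 214 in Old 1, and at 132 and 105 CPM in the second set (-0.96, SE 0.40, edgeR adjusted p 0.69).

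Without Old 2 and Sedentary 1, edgeR called F830016B08Rik (-2.58, adjusted p 3.74e-09) and Cish (-3.56, adjusted p 2.51e-07). Old was then the single library Old 1, and the spread came from the other groups. F830016B08Rik was at 243 CPM in type IIb-like nuclei of Young 1, against 31.0 in Old 1, 58.7 in Running 1 and 35.1 in Sedentary 1. Iigp1 was at 2.33 CPM in these nuclei of Young 1 and at 0.717 to 1.55 CPM in the other 3 of the 10x libraries. Cish was at 63.1 CPM in type IIb-like nuclei of Young 1 and at 0.956 to 1.24 CPM in Old 1, Running 1 and Sedentary 1.

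For Running over Sedentary without FAP-like nuclei, edgeR and DESeq2 called 0 of the 97, 0 had an unadjusted p below 0.05 with edgeR, and 84 estimates were above and 13 below 0, with a median of 0.31 against 0.06 for all genes. The smallest p belonged to Cd74, the invariant chain of antigen presentation (log2 fold change 1.39, SE 0.70, edgeR adjusted p 0.9998), Ifi27 (1.03, SE 0.63) and Psmb10, a subunit of the immunoproteasome (1.24, SE 0.78). None of the 10 interferon genes had enough UMIs to be tested. Ifng, which encodes interferon gamma, had 0 to 6 UMIs in the 6 libraries that list it.

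Relatives outside the list had class patterns of their own. In endothelial-like nuclei Gbp4 was at 185 CPM in Young 1, 92.0 in Old 1, 141 in Running 1 and 41.2 in Sedentary 1, against 0 to 3.71 CPM in FAP-like, adipocyte-like and macrophage-like nuclei. Gm4951 was highest in macrophage-like nuclei in 3 of the 10x libraries, at 122 CPM in Old 1, 271 in Running 1 and 62.5 in Sedentary 1, while in Young 1 it was at 249 CPM in adipocyte-like and 195 in macrophage-like nuclei.

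The library sets differed for a pair of members in the myonuclei themselves. How many other genes differed in this way was not counted. In type IIb-like nuclei Ddx58 was at 1.75 to 2.87 CPM in the 4 libraries of the 10x set and at 29.0 CPM in Young 2, 37.3 in Running 2 and 35.3 in Sedentary 2. Igtp was at 0.717 to 2.33 CPM in the 10x set and at 16.6, 11.2 and 12.3 CPM in the same 3 libraries. Old 2 had 46 type IIb-like nuclei with 0 Ddx58 UMIs, which allows up to 66.3 CPM, and 1 Igtp UMI. For the sum of the 9 members, type IIb-like nuclei of the second set stood at 66.3 to 71.6 CPM in all 4 libraries (3 UMIs in Old 2), against 20.1 to 22.4 CPM in the 10x set. The droplet chemistry and the counting changed together with the set and cannot be told apart.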

How the data were processed

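Single-nucleus RNA was measured in 8 libraries. The authors deposited filtered matrices of raw UMI counts per gene and nucleus, made on mm10 (GRCm38). The submitters' processing notes name Cell Ranger 6.1.2 and Seurat 4.1.1 for all 8 libraries. The study's methods differ, and name PISA for counting the libraries of the MGI droplet system (DNBelab C), taken here as the second set. Those methods name Cell Ranger for the other droplet system only. Whether intronic reads were counted is not given in the sources used here.

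The study's nucleus filter (over 200 and below 6000 genes, mitochondrial share below 6%) left 64803 of 65280 nuclei. Doublets stayed in. Sums excluded 12 mitochondrial and 82 ribosomal protein symbols. The nuclei of each set were clustered (leidenalg 0.10.2, resolution 1.0) and named from markers, with naming limits set after clusters had been seen. UMIs were summed per library and class and compared by the quasi-likelihood test of edgeR 4.0.16 (R 4.3.3, TMM, filterByExpr, library set as a term, Benjamini-Hochberg over all genes, threshold 0.05). DESeq2 1.42.0 was an alternative. The tests were tried on simulated data. Replicate numbers follow deposition order, coincide with the set and pair no animals. Ages and training come from the study's methods. Coordinates are those of GENCODE vM21.

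The members and lists were chosen with earlier results of these data known. Named in every comparison were all 9 members, called pathway genes or the 3 with the smallest p, and the 5 genes most like each pattern.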

Additional observations from a re-analysis of the deposited data

How the results depend on the processing

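The counts of members called in whole libraries were 0 under every alternative run for both comparisons. Within classes the count rose from 0 to 1, Iigp1 in FAP-like nuclei for Old against Young, at resolution 2.0, and it ranged from 0 to 1 when single libraries were left out (1 without Sedentary 1, without Sedentary 2 and without Young 2). Without Old 2 and Sedentary 1 together, an alternative chosen after seeing the data, 1 member was called within classes and 2 pathway genes in whole libraries, against 0. In FAP-like nuclei that alternative is the same fit as the one without Sedentary 1, since Old 2 was in neither, and it adds nothing to it. Replicate numbers coincide with the library set, so the fit with the set is the fit with the replicate block. Without this block the counts of members called stayed at 0 in whole libraries and within classes, and Ifih1 for Old against Young turned to -0.0545.

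Log2 fold changes crossed 0 as follows. For Old against Young without Young 1, Iigp1 was 0.48, Igtp 0.12, Gbp2 0.62 and Ddx58 0.32. Gbp2 was 0.22 without the deepest 6% of nuclei, 0.038 with all deposited barcodes, 0.69 without Old 1 and 0.01 without Running 1. Gbp3 was -0.52 without Old 2, -0.13 without Young 2 and -0.65 without Old 2 and Sedentary 1. Irf1 was -0.36 without Old 1. Ifih1 was -0.57 without Old 2 and -0.54 without Old 2 and Sedentary 1, and Ddx58 was 0.21 and 0.0716 in the same fits. For Running against Sedentary, Iigp1 was -0.30, Irgm1 -0.10, Igtp -0.38 and Ddx58 -0.19 without Sedentary 1. Without Old 2 and Sedentary 1, Iigp1 was -0.55, Igtp -0.33 and Ddx58 -0.12. Ifih1 was -0.30 without Running 1 and Ddx58 -0.02 without Running 2. The cause was not tested. Over the fits that leave out 1 library, the range for Old against Young was -1.97 to 0.48 for Iigp1, -1.54 to 0.12 for Igtp, -0.92 to 0.69 for Gbp2, -0.52 to 1.34 for Gbp3, -0.36 to 0.54 for Irf1, -0.57 to 0.67 for Ifih1 and -0.71 to 0.32 for Ddx58. For Running against Sedentary it was -0.30 to 1.57 for Iigp1, -0.10 to 1.03 for Irgm1, -0.38 to 2.12 for Igtp and -0.19 to 0.94 for Ddx58. Over all alternatives, 17 member values crossed 0 and 136 kept their side for Old against Young, and 9 and 162 did so for Running against Sedentary.

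Each group had 1 library in each set, the second set held 0.27% to 2.6% FAP-like and 0% endothelial-like nuclei, and class comparisons outside the myofibers therefore rest on single 10x libraries.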
